A study of Mus musculus with 20 samples.

Results

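Gfap-negative astrocytes of the mouse hippocampus were examined by single nuclei RNA-sequencing, which counts the RNA molecules of each nucleus by their unique molecular identifiers (UMIs). The nuclei were selected on measured counts, with a sum of 4 or more UMIs over Slc1a3, Gli3, Atp13a4, Fgfr3 and Aqp4, at least 2 of these 5 markers above 0, and no UMI of Gfap. In addition, Gad1, Gad2, Prox1 and Fibcd1, which mark neurons, summed to 1 or less, and Mog, Pdgfra, Csf1r and Flt1, which mark oligodendrocytes, their precursors, microglia and endothelium, were at 0. This rule kept 7434 of 160777 nuclei, with 149 to 583 nuclei per mouse. The 20 mice were males of 4.5 to 5.5 months, either WT or APP/PS1 (APPSwe/PS1ΔE9) littermates. They comprised 6 WT-Awake, 3 APP/PS1-Awake, 3 WT-Isoflurane, 4 APP/PS1-Isoflurane, 2 WT-Ketamine and 2 APP/PS1-Ketamine mice (Wake, Isofluran and Ketamine in the labels). The design text of the series gives other group sizes, and the labels of the mice were used here. General anesthesia lasted 3 h, either with isoflurane at 5% lowered to 1.5%, or with ketamine at 150 mg/kg given with xylazine at 12 mg/kg, and awake mice received neither. The transgenes of this line are driven by a prion protein promoter that is not restricted to 1 cell type, and each mouse gave 1 library. Replicates are named by the mouse number in the label.

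Astrocytes clear glutamate and potassium from the space around synapses, take up glucose and amino acids from blood vessels, and are coupled to each other by gap junctions. They are also a main source of cholesterol in the brain, since lipoproteins of the blood do not pass into it. Cholesterol synthesis starts from acetyl-CoA, passes through mevalonate and squalene, and is controlled by SREBP2 (encoded by Srebf2), a transcription factor that Scap releases from the endoplasmic reticulum when sterols are low and that the Insig proteins retain there when sterols are high. Gfap is a filament protein of astrocytes that increases after injury, and a nucleus without a UMI of Gfap at this depth may still hold its RNA.

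The counts were first compared with the name. A member nucleus had a median of 1234 UMIs and 816 genes. Levels are given as CPM, in which a gene's UMIs are scaled to a fixed total. In this paragraph and for sums over a list, that total is taken over all genes, and for single genes by mouse it is taken over the genes tested and adjusted by TMM, a scaling between libraries, so the scales differ. Slc1a2, the main glutamate transporter of astrocytes, which the rule did not use, had a UMI in 98.3% of the member nuclei and stood at 6530 CPM. In the 119793 nuclei with no UMI of the 5 markers, called marker-free here, it was found in 27.5% and stood at 208 CPM, with a median depth of 1773 UMIs. Gpc5, a glypican of the astrocyte surface, was at 7991 CPM against 305 CPM, Gja1, the gap junction protein connexin, at 551 CPM against 13.4 CPM, and Aldh1l1, an enzyme of folate metabolism, at 165 CPM against 5.01 CPM. Neuron genes were lower in the members than in the marker-free nuclei but not absent. Meg3 was at 1517 CPM against 7307 CPM and Rbfox3, which encodes the neuronal marker NeuN, at 101 CPM against 476 CPM. Because the rule picked these nuclei by their counts, these values describe the selection and were not tested.

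The threshold divided a continuous range of nuclei. Just inside it lay 1986 nuclei with a marker sum of 4 (median 974.5 UMIs), and just outside lay 2260 nuclei with a sum of 3 (median 888 UMIs) that met the other conditions. A further 1504 nuclei missed the rule by 1 UMI of Gfap, and 799 held 2 or more Gfap UMIs (median 1798 UMIs). Among the members, Slc1a3, a glutamate transporter, was seen in 98.6%, Gli3, a transcription factor of the Hedgehog pathway, in 53.7%, Fgfr3, a receptor of fibroblast growth factors, in 44.1%, Aqp4, the water channel of astrocyte end-feet, in 39.8% and Atp13a4, a P-type ATPase, in 30.9%.

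Library totals ran from 9243992 to 25394891 UMIs and the summed UMIs of the members from 154230 to 1137625 per mouse. In mice 1 to 4, mitochondrial genes took 0.94% to 1.78% of all UMIs, against at most 0.34% in the other mice, so the fits carried a term for these 4 mice. The ketamine mice were numbered 25 to 28, with no other mouse among these numbers, and the number next to them belongs to 1 awake mouse, mouse 29. The labels do not say which mice were prepared together, so a batch of mice 25 to 28 alone could not be told apart from ketamine. Pairs of libraries shared 5 to 35 cell barcodes. A clustering of the members gave 12 sub-clusters. In 7 of them, with 1052 nuclei (14.2%), a gene from a list of other cells, written after the data were seen, was among the 10 leading genes. A sub-cluster of 1719 nuclei (23.1%), which held 79.7% of the ketamine members, 12.3% of the awake and 16.3% of the isoflurane members, stayed in all fits although Fn1, Vim, Col1a1 and Col1a2, which fibroblasts express, were among its leading genes. The largest sub-cluster, of 1867 nuclei (25.1%), stayed in as well. It was led by Myoc, and Sst, Cck, Pcsk1n, which neurons express, and mitochondrial genes were among its leading genes, and 79.5% of its nuclei came from mice 1 to 4.

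The share of nuclei that met the rule was 5.14% ± 1.38 (SD, n = 9) in awake mice, 4.47% ± 1.28 (SD, n = 7) under isoflurane and 3.88% ± 0.556 (SD, n = 4) under ketamine. The differences from awake mice were -0.674 percentage points (two-sided exact permutation test, p = 0.336) and -1.26 percentage points (exact permutation test, p = 0.109). As another rule, 116312 nuclei of 1000 or more UMIs were thinned to 1000 UMIs, 44465 shallower nuclei were left out, and a marker sum of 2 or more replaced the conditions on the 5 markers, which 7947 nuclei met. The p-values for these other nuclei were 0.80 and 0.532 by the same exact test. Shares in mice labelled APP/PS1 were 4.93% ± 1.37 (SD, n = 9), against 4.43% ± 1.21 (SD, n = 11) in WT (exact permutation test, p = 0.391). None of the 3 differences passed 0.05. Without mouse 12, the awake mouse with the lowest share, the ketamine difference was -1.65 percentage points and passed 0.05.

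Whether isoflurane changes RNA levels in these nuclei was asked by summing the UMIs of the members per mouse and comparing 7 isoflurane with 9 awake mice with edgeR's quasi-likelihood test, genotype as a covariate. A gene is called where its Benjamini-Hochberg adjusted p was under 0.05, and the 14 genes of the rule are not counted. Of 10833 genes, 423 were called higher (3.90%) and 214 lower (1.98%), together 5.88%. The genes of cholesterol synthesis rose together. Of 33 measured genes of cholesterol synthesis and transport, 25 were called higher and 1 lower, with a median log2 fold change of 1.05 over the 33 against -0.015 over all genes. Without mouse 4 the total count was 417 genes and without mouse 18 it was 399, while 21 and 19 genes of the list were called higher. When single mice were left out, the list held 19 to 25 risen genes, and none was called lower without mouse 2, 4 or 18. With genes seen in at least 10% of member nuclei 13 of the list could be tested and 10 were called higher, and with equal nuclei per mouse 18 of 28 were.

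Genes at the entry to the pathway rose. Hmgcs1, the cytosolic HMG-CoA synthase, was at 67.3 to 165 CPM (median 101) in awake mice and at 190 to 294 CPM (median 230) under isoflurane. The groups did not overlap, and the log2 fold change was 1.23 (SE 0.144, edgeR adjusted p = 6.91e-06). Acat2, which joins acetyl-CoA units ahead of it, rose by 0.98 (SE 0.262).

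Enzymes between mevalonate and squalene followed the same direction. Mvd, mevalonate diphosphate decarboxylase, rose by 2.10 on the log2 scale (SE 0.294), Pmvk, phosphomevalonate kinase, by 1.96 (SE 0.318), Fdps, farnesyl diphosphate synthase, by 1.47 (SE 0.173) and Fdft1, squalene synthase, by 1.08 (SE 0.139). Smaller rises were measured in Idi1 (0.95, SE 0.217), the isomerase of isopentenyl diphosphate, and Mvk (0.86, SE 0.257), mevalonate kinase. Fdps was at 21.5 to 66.9 CPM (median 42.2) in awake mice and at 77.5 to 158 CPM (median 103) under isoflurane, with no overlap. Mvk lay near the threshold (edgeR adjusted p = 0.0465) and was called in 9 of its 31 fits, the fewest of the 25.

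Enzymes that turn squalene into cholesterol rose as well. Lss, lanosterol synthase, was at 0 to 21.8 CPM (median 12.6) in awake mice and at 43.4 to 89.3 CPM (median 49.3) under isoflurane, a log2 change of 2.29 (SE 0.25, edgeR adjusted p = 3.57e-06). Msmo1, a methylsterol oxidase, went from 143 to 318 CPM (median 256) to 381 to 699 CPM (median 575). Its groups did not overlap either. Hsd17b7, a ketosteroid reductase, rose by 1.98 (SE 0.246), Dhcr7, a reductase of the last step, by 1.44 (SE 0.176), Tm7sf2, a sterol reductase, by 1.39 (SE 0.24) and Cyp51, the lanosterol demethylase, by 1.17 (SE 0.199). Sc5d, a sterol desaturase, rose by 1.05, Nsdhl, a sterol dehydrogenase, by 0.78 and Sqle, squalene epoxidase, by 0.65. Sqle and Nsdhl were called in 17 of 33 and 16 of 32 fits. Ebp, a sterol isomerase, was at 0.02 (SE 0.385, edgeR adjusted p = 0.993) and at a median of 10.8 CPM in awake mice.

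Carriers and regulators of sterols were less uniform. Stard4, which carries cholesterol between membranes, rose by 2.68 (SE 0.267, edgeR adjusted p = 1.16e-06), from 4.6 to 16.5 CPM (median 6.0) to 25.8 to 80.0 CPM (median 51.1). Insig1, the sterol-responsive retention protein, was at 39.1 to 75.1 CPM (median 60.2) in awake mice and at 83.8 to 181 CPM (median 160) under isoflurane, a log2 change of 1.48 (SE 0.152, edgeR adjusted p = 1.35e-06). Srebf2 itself rose by 0.43 (SE 0.111, edgeR adjusted p = 0.0195). Scarb1, a lipoprotein receptor, rose by 1.30 and Npc2, a lysosomal cholesterol carrier, by 0.72. Abca1, which exports cholesterol to lipoproteins, was the member called lower, at 114 to 288 CPM (median 146) in awake mice and 72.8 to 138 CPM (median 98.6) under isoflurane, and fell by 0.58 on the log2 scale (SE 0.162, edgeR adjusted p = 0.0336). Srebf1 (0.04, SE 0.171), the related factor of fatty acid genes, Scap (-0.08, SE 0.238) and Insig2 (-0.10, SE 0.185) were not called.

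**Figure D1:**
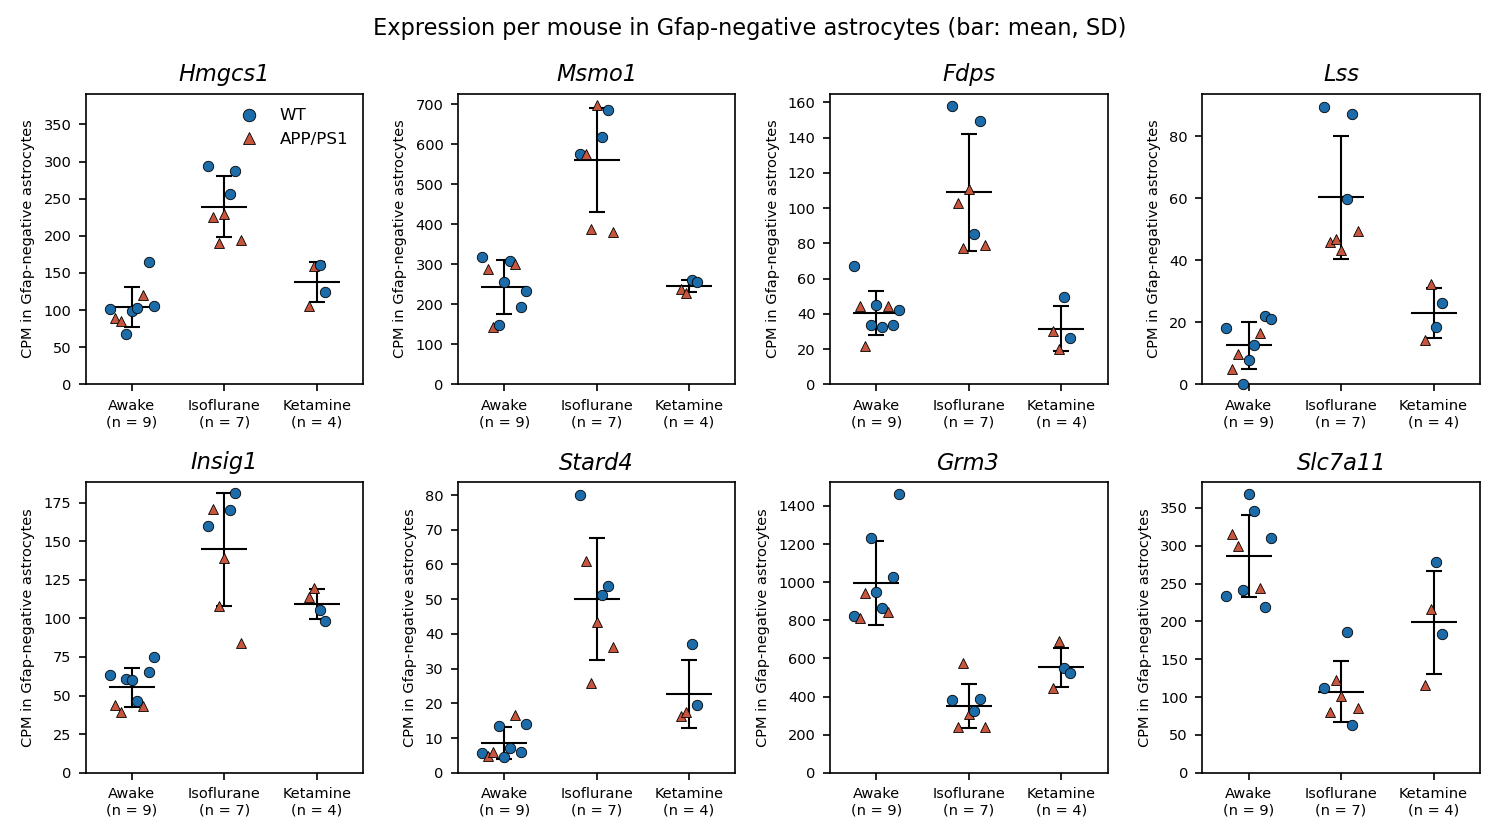
Expression of 8 genes in Gfap-negative astrocytes, 1 point per mouse, on a linear axis of CPM for awake (n = 9), isoflurane (n = 7) and ketamine mice (n = 4). Circles are WT and triangles APP/PS1, and bars give the mean and SD. Hmgcs1, Msmo1, Fdps, Lss, Insig1 and Stard4 show no overlap between awake and isoflurane mice, and Grm3 and Slc7a11 lie lower under isoflurane. The genes were picked for their change in these mice, so this is a description.

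The same mice were also compared within runs of consecutive numbers that held both states, which is a description, since the 25 genes were chosen by their change in these mice. In mice 1 to 4 (2 awake, 2 isoflurane), 10 to 13 (3 and 1), 14 to 17 (2 and 2) and 18 to 20 (1 and 2), each of the 25 risen genes was higher under isoflurane, with median log2 differences of 1.30, 1.11, 1.11 and 1.37. Summed over the 33 genes, the awake mice held 1446 to 2220 CPM (median 1946), the isoflurane mice 2437 to 4343 CPM (median 3746) and the ketamine mice 1964, 2338, 2669 and 2514 CPM (mice 25, 26, 27 and 28). The lowest isoflurane mouse thus lay above the highest awake mouse, and the ketamine mice lay across the gap. At least 1 UMI of the list was found in 89.7% to 99.4% of the member nuclei of each isoflurane mouse and in 75.8% to 96.7% of those of each awake mouse. The median UMI count per nucleus was 1008 to 1862 and 752 to 2148 in these groups. Within the 3 largest sub-clusters of the members, pooled over mice, the sum was 4364 against 2247 CPM, 3842 against 2270 CPM and 3384 against 2083 CPM (isoflurane against awake). Some sub-clusters were shared by the states and some were not. The largest held 28.7% of the awake and 29.4% of the isoflurane members, and the third largest 12.3% and 16.3%. The clustering was not corrected for mouse, and in mouse 3 the largest held 91.2% of the members. The second largest held 42.3% of the awake and 6.02% of the isoflurane members, and the fourth, with Lss, Arrdc2, Prune2 and Fkbp5 among its leading genes, 0.771% and 32.5%, at 4792 CPM in 901 isoflurane nuclei and 2624 CPM in 28 awake nuclei.

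The marker-free nuclei of the same libraries were measured beside the members. Changes in marker-free nuclei, here and below, are from limma on log-CPM values, while changes in the members are from edgeR, so the scales differ. Over the 25 risen genes, the median log2 change in marker-free nuclei was -0.042, with a range of -0.302 to 0.453. Tm7sf2 was called higher and Srebf2 lower there, and the share of all genes called in marker-free nuclei is not given here. The summed list stood at 758 ± 112 CPM (SD, n = 9) in awake and 767 ± 199 CPM (SD, n = 7) in isoflurane mice. The difference between the change in members and that in marker-free nuclei was tested with limma on log-CPM values paired within each mouse. It was called for 252 of 10833 genes (2.33%), 162 higher in members (1.50%) and 90 lower (0.831%). It was also called for 20 of the 25 risen list genes, which is a description, since they were chosen by their rise in these members. Of all 637 genes called under isoflurane, 172 were called in the difference with the same sign. For Hmgcs1 the difference was 1.29 (SE 0.196, limma adjusted p = 0.00134) and for Stard4 2.17 (SE 0.302, limma adjusted p = 0.000719). Leaving out mouse 2 lowered the total to 140 genes, and mice 1, 4, 15, 16 and 18 to 144 to 164.

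**Figure D2:**
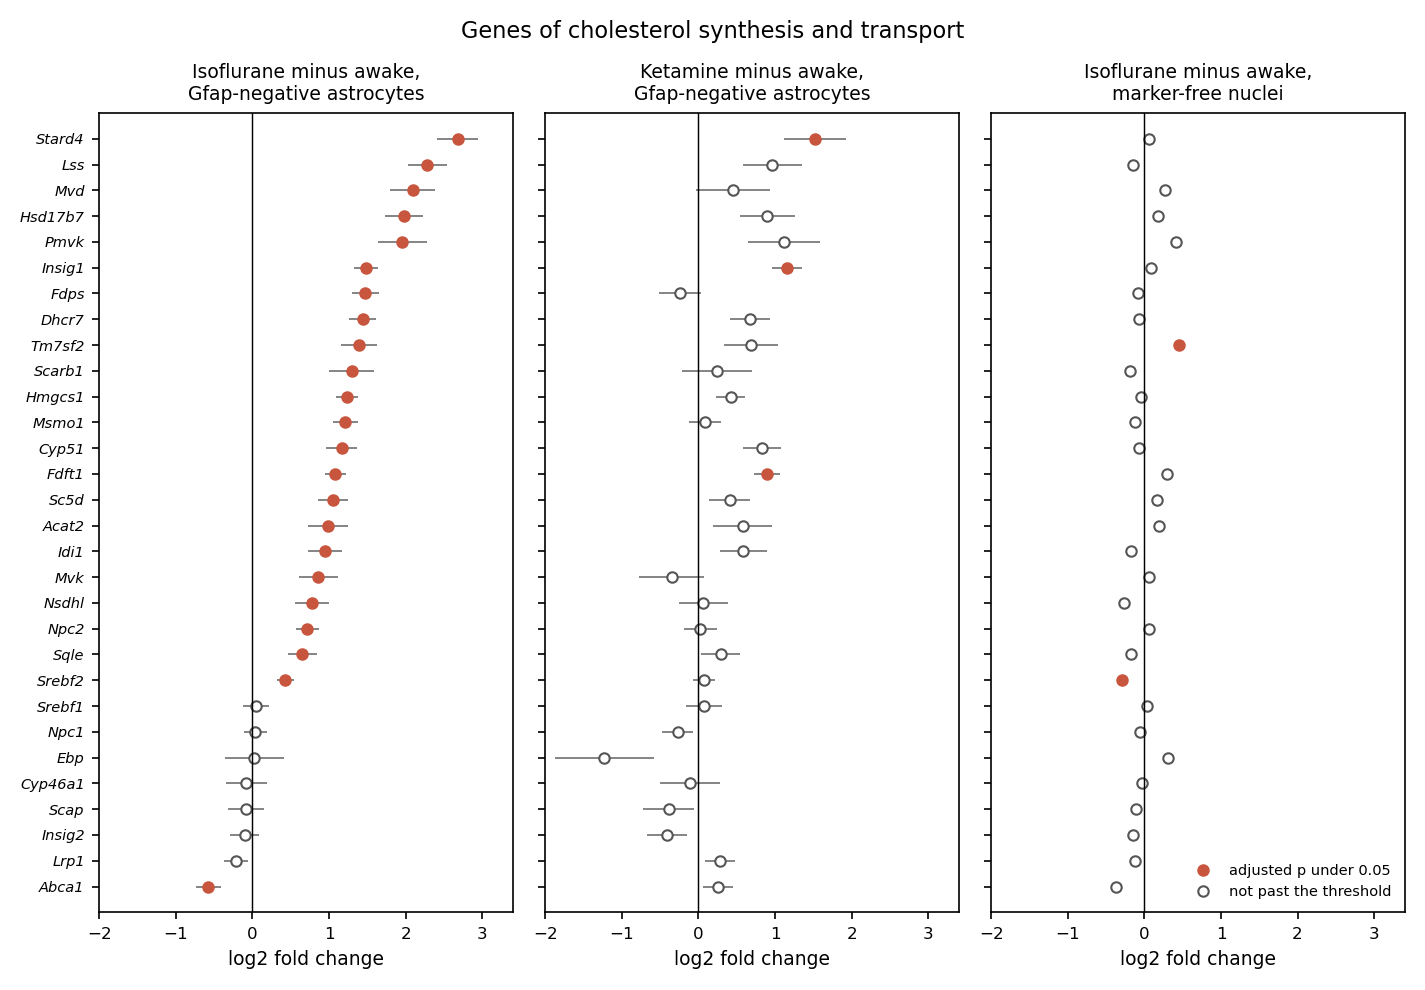
Log2 fold changes of 30 of the 33 genes of cholesterol synthesis and transport, isoflurane minus awake (left) and ketamine minus awake (middle) in Gfap-negative astrocytes, and isoflurane minus awake in marker-free nuclei (right). Filled points passed an adjusted p of 0.05, and lines in the left and middle panels give the standard error. Values on the left and in the middle are from edgeR and those on the right from limma on log-CPM values, so the scales differ. On the left 22 genes lie to the right of 0 as filled points, in the middle 3, and on the right the points lie between -0.373 and 0.453.

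Astrocytes of the same mice with 2 or more Gfap UMIs were measured in the same way. The summed CPM of the list in them was 2450 ± 489 (SD, n = 9) in awake mice, 4288 ± 846 (SD, n = 7) under isoflurane and 2550 ± 132 (SD, n = 4) under ketamine. Each mouse counts equally here, although the nuclei ran from 3 (mouse 12) to 142 (mouse 25) per mouse. With 799 nuclei, 2387 genes could be fitted, of which 23 were called higher and 5 lower under isoflurane. Of the 25 risen genes 11 were fitted, each was above 0 (median 0.80), and 3 were called, among them Insig1 (1.74, SE 0.37) and Msmo1 (1.23, SE 0.282). Whether the change differs between Gfap-negative and Gfap-positive astrocytes was not tested.

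**Figure D3:**
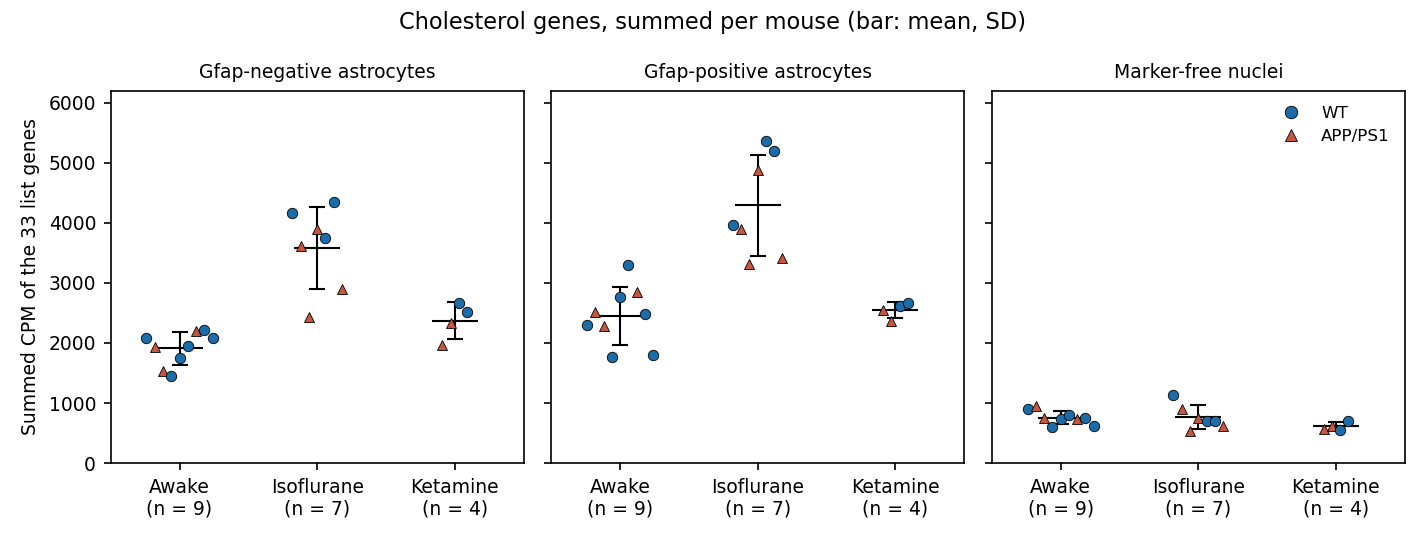
Summed CPM of the 33 cholesterol genes per mouse in Gfap-negative astrocytes, Gfap-positive astrocytes and marker-free nuclei, on a shared linear axis. Circles are WT, triangles APP/PS1, and bars give the mean and SD of 9 awake, 7 isoflurane and 4 ketamine mice. Points of Gfap-positive astrocytes rest on 3 to 142 nuclei per mouse. Both astrocyte groups lie higher under isoflurane, at means of 3585 and 4288 CPM, while marker-free nuclei have means of 758, 767 and 613 CPM in awake, isoflurane and ketamine mice.

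Starts of the risen genes were examined in RefSeq (GRCm38.p6), in the window from 250 bases before to 50 after the start. An entry was found for 17 of the 25. The sequence TCACNCCAC, a form of the sterol regulatory element bound by SREBP factors, was present on either strand in 1 of the 17 (Hmgcs1), and in 1.44% of 27025 genes with a window. CCAAT, the box bound by NF-Y, was present on either strand in 16 of the 17, and in 41.1% of all genes with a window, and no match of one motif overlapped a match of the other in the windows shown. The windows below are shown because their genes rose and because they were seen to hold these motifs. They end at the base before the RefSeq start and are written in the direction of transcription, with both motifs in capitals (ATTGG is CCAAT on the other strand). They are Hmgcs1 (chr13:119690191-119690350, plus strand), Idi1 (chr13:8885506-8885605, plus), Lss (chr10:76531505-76531604, plus), Cyp51 (chr5:4104698-4104797, minus) and Hsd17b7 (chr1:169969206-169969305, minus).
Hmgcs1: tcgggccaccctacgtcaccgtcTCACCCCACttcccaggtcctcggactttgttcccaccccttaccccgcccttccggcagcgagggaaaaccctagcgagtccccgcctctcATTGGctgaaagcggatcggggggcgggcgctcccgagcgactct
Idi1: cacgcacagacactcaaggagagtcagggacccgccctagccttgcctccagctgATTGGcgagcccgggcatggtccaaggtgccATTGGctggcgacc
Lss: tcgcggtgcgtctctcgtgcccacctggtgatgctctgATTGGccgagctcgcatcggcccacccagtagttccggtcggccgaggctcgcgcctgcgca
Cyp51: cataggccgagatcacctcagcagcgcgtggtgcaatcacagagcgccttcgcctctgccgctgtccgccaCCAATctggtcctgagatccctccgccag
Hsd17b7: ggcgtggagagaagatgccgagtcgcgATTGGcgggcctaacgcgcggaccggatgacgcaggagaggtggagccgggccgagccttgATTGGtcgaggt

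In the GENCODE annotation of GRCm38, Hmgcs1 (ENSMUSG00000093930) lies on chromosome 13 from 119690379 to 119708260, Insig1 (ENSMUSG00000045294) on chromosome 5 from 28071363 to 28078662 and Lss (ENSMUSG00000033105) on chromosome 10 from 76531588 to 76557138. Reads over exons and introns of a gene were counted together.

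Genes of fatty acid synthesis rose in part. Of 34 measured genes of fatty acid metabolism, 6 were called higher, against 3.90% of all genes, and 1 lower, against 1.98% (median log2 0.161). Acly, which makes cytosolic acetyl-CoA, was at 10.8 to 39.7 CPM (median 27.0) in awake mice and at 58.6 to 140 CPM (median 82.2) under isoflurane, a log2 change of 1.77 (SE 0.234, edgeR adjusted p = 3.38e-05). Fasn, fatty acid synthase, rose by 1.24 (SE 0.198), Scd1, a desaturase, by 1.25 (SE 0.256) and Elovl6, an elongase, by 0.88 (SE 0.171). Mgll, which breaks down monoacylglycerols and an endocannabinoid, fell by 0.83 (SE 0.175), from 217 to 532 CPM (median 390) to 145 to 257 CPM (median 200). Outside the lists, Aacs, which makes acetoacetyl-CoA for lipid synthesis, rose by 1.65 (SE 0.147, edgeR adjusted p = 2.72e-07), and Pcyt2, an enzyme of phosphatidylethanolamine synthesis, by 1.44 (SE 0.163). Aacs was at 20.2 to 51.1 CPM in awake and 79.8 to 142 CPM in isoflurane mice, with no overlap.

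Prune2 had the smallest p of all genes beside Aacs. It was at 46.3 to 77.1 CPM (median 57.7) in awake mice and at 162 to 295 CPM (median 230) under isoflurane, a log2 change of 1.90 (SE 0.164, edgeR adjusted p = 2.72e-07). Pappa, a protease of IGF-binding proteins, rose by 2.34 (SE 0.259), Heph, a copper ferroxidase, by 2.03 (SE 0.233) and Ccnd3, a cyclin, by 1.39 (SE 0.151). Each of these 4 genes was called in every fit made, and none overlapped between awake and isoflurane mice. Like the other called genes named here, they were picked for their small p in these mice, so the lack of overlap is a description. The share of all genes without overlap is not given here.

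A list of targets of the glucocorticoid receptor, which also holds receptor genes such as Nr3c2, had 25 measured genes. Of these, 7 were called higher, against 3.90% of all genes, 0 lower and 18 were not called (median log2 0.162). With each mouse left out 5 to 8 were called higher. Fkbp5, a co-chaperone of the receptor, was at 9.9 to 76.3 CPM (median 38.0) in awake mice and at 27.9 to 375 CPM (median 277) under isoflurane, a log2 change of 2.26 (SE 0.406, edgeR adjusted p = 0.00118), and 5 of 7 isoflurane mice lay above the awake range. Arrdc2, an arrestin-domain protein, rose by 2.81 (SE 0.375), Tsc22d3, which encodes the anti-inflammatory protein GILZ, by 1.06 (SE 0.229) and Klf9, a zinc finger factor, by 0.64 (SE 0.122). Hif3a rose by 1.27 (SE 0.19) in the members, and in marker-free nuclei it was called with a log2 change of 1.40. Fkbp5 differed between members and marker-free nuclei by 1.88 (SE 0.385, limma adjusted p = 0.0109).

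Among 33 genes of glycogen, glycolysis and lactate, 3 rose and 1 fell, where 3.90% of all genes rose and 1.98% fell. Pygm, a glycogen phosphorylase, rose by 1.85 (SE 0.243), Pcx, pyruvate carboxylase, by 0.93 (SE 0.154) and Ppp1r3g, a glycogen-targeting subunit, by 0.85 (SE 0.232). Gbe1, the glycogen branching enzyme, fell by 0.78 (SE 0.217). Ppp1r3g was called in 23 and Gbe1 in 21 of 32 fits. Of 21 clock genes Npas2 rose by 0.65 (SE 0.141) and Bhlhe40 by 0.63 (SE 0.18), and Per2 was at 0.12 (SE 0.168, edgeR adjusted p = 0.80). Bhlhe40 was called in 18 of 33 fits. Of 24 immediate early genes, Klf6 and Gadd45g were called higher, with a median of -0.053 over the list, and Klf6 in 11 of 32 fits. The counts of 2 of 21 and 2 of 24 stand against 3.90% of all genes, and without mice 1, 2, 4, 16, 18 or 26, each in turn, each of the lists had at most 1 higher call.

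Among all genes, 1.98% were called lower. Grm3, the metabotropic glutamate receptor of adult astrocytes, was at 810 to 1465 CPM (median 945) in awake mice and at 238 to 575 CPM (median 326) under isoflurane, and fell by 1.45 (SE 0.168, edgeR adjusted p = 6.91e-06). Slc7a11, the cystine-glutamate exchanger, was at 218 to 369 CPM (median 300) and then at 63.7 to 186 CPM (median 102), and fell by 1.39 (SE 0.194). In both genes the 7 isoflurane mice lay below every awake mouse. Sfxn5, a mitochondrial carrier, fell by 0.98 (SE 0.125), Slco1c1, a thyroid hormone transporter, by 0.94 (SE 0.131), Ak4, an adenylate kinase, by 1.49 (SE 0.233) and Adcy2, an adenylate cyclase, by 0.77 (SE 0.128). Of 36 genes that organise synapses or take up debris 6 were called lower and 1 higher, with Nrcam, an adhesion molecule, at -0.75 (SE 0.121), Ephb1, an ephrin receptor, at -1.06 (SE 0.225), and Sparc, a matrix protein, the higher one at 0.80 (SE 0.161). The 6 lower calls were 2 without mouse 18 or 20 and 3 without mouse 4, 13, 15, 16, 26 or 29. Grm3 also fell in marker-free nuclei (-0.42, limma adjusted p = 0.0219), and the difference from the members was -1.05 (SE 0.228, limma adjusted p = 0.0175).

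Of 30 core astrocyte genes, 3 were called higher, against 3.90% of all genes, and 2 lower, against 1.98%, with a median of -0.0074, and 25 were not called. Slc1a2 stood at 5505 to 9429 CPM (median 6827) in awake mice and at 5567 to 7417 CPM (median 6504) under isoflurane (log2 -0.06, SE 0.112, edgeR adjusted p = 0.865). Gja1 (-0.01, SE 0.196) and Glul, glutamine synthetase (0.12, SE 0.136), were not called. Aldh1l1 was at 59.7 to 161 CPM (median 101) in awake mice and 139 to 332 CPM (median 280) under isoflurane, a log2 change of 1.38 (SE 0.187, edgeR adjusted p = 4.76e-05), and it was called in marker-free nuclei too, at 1.22. Slc4a4, a bicarbonate transporter, fell by 0.41 (SE 0.123) and was called in 14 of 33 fits. None of 3 gap junction genes and none of 9 Hedgehog genes was called by edgeR.

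Lists of other cells were counted in the same fit. The precursor list holds Cspg5, at 530 CPM in the members against 71.3 CPM in marker-free nuclei. The vascular list holds Atp13a5, at 63.0 against 6.55 CPM. Other genes of these lists went the other way, such as Tnr at 144 against 532 CPM, so the lists do not mark other cells alone. None of 14 neuron genes, 9 oligodendrocyte genes, 6 microglia genes, 4 vascular genes and 6 ependymal and choroid genes was called by edgeR between isoflurane and awake mice. Of all genes 5.88% were called, a share at which lists this short often hold no call. Of 5 oligodendrocyte precursor genes Vcan was called lower (-1.11, SE 0.251), where 1.98% of all genes were. The ependymal and choroid genes were all below 0, with a median of -0.887. The 15 neuron genes summed to 2830 to 8033 CPM (median 4723) in awake mice and to 4057 to 6842 CPM (median 5002) under isoflurane. Without the 1052 nuclei of the 7 sub-clusters, 778 genes were called (489 higher, 289 lower), and 24 of 33 cholesterol genes were called higher and 1 lower.

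Ketamine was compared with the same 9 awake mice, so these results share their controls with those of isoflurane. Mouse 29, numbered next to the ketamine mice, held the highest awake value of Insig1, Jun, Fos and Vim given below, and without it 543 genes were called. Of 10833 genes, 259 were called higher (2.39%) and 147 lower (1.36%), together 3.75%. Without the 1052 nuclei the count was 343 (196 higher, 147 lower). Without mouse 27 it was 126, without mouse 25 it was 218 and without mouse 26 it was 215. Of 33 genes of the cholesterol list 5 were called higher and 0 lower (median log2 0.291 against -0.0347 over all genes). Insig1 was at 114, 120, 105 and 98.1 CPM in mice 25, 26, 27 and 28 and rose by 1.16 (SE 0.196, edgeR adjusted p = 0.0017). Its 4 values lay above every awake mouse. Fdft1 rose by 0.90 (SE 0.174) and Stard4 by 1.52 (SE 0.406). Stard4 lost the call in 12 of 31 fits, and the list had 1 called gene without mouse 27 and 3 without mouse 13, 14, 26 or 28.

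A direct comparison of the 2 anesthetics, ketamine minus isoflurane, called 205 genes higher (1.89%) and 133 lower (1.23%), together 3.12% of 10833. No isoflurane mouse was numbered among the ketamine mice, so here the drug and any batch of mice 25, 26, 27 and 28 cannot be told apart. The 25 genes that isoflurane raised and Abca1 were chosen by their change in these same isoflurane mice, so their counts here are a description. Of the 25 genes, 5 were called lower under ketamine, and Abca1 was called higher (0.83, SE 0.204). They were Fdps (-1.71, SE 0.264, edgeR adjusted p = 0.00137), Mvd (-1.64, SE 0.439, called in 18 of 31 fits), Lss (-1.32, SE 0.345), Msmo1 (-1.13, SE 0.221) and Hmgcs1 (-0.81, SE 0.194). Fdps was at 30.5, 19.9, 49.5 and 26.2 CPM in the ketamine mice (25, 26, 27 and 28), below the 7 isoflurane mice, and 3 of the 4 lay within the awake range with mouse 26 below it. For Insig1 the difference was -0.32 (SE 0.196, edgeR adjusted p = 0.408), which did not pass the test. Prune2 (-1.84, SE 0.233) and Pcyt2 (-1.31, SE 0.223) were lower, and Slco1c1 higher (1.05, SE 0.162), under ketamine. Without the 1052 nuclei the total was 284 genes (145 higher, 139 lower). Without mouse 26 it was 111, without mouse 25 it was 117 and without mouse 27 it was 121, and without mice 15, 16, 18 or 28 it was 144 to 216.

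Immediate early genes, which neurons and glia switch on within minutes of a stimulus, were higher under ketamine in 7 of 24 measured members, against 2.39% of all genes, with 0 lower (median log2 0.999, against -0.0347 over all genes). Jun was at 386 and 259 CPM in the APP/PS1-Ketamine mice (25 and 26) and at 92.8 and 68.7 CPM in the WT-Ketamine mice (27 and 28), against 18.5 to 75.1 CPM (median 35.7) in awake mice, a log2 change of 2.66 (SE 0.415, edgeR adjusted p = 0.000806). Fos was at 236, 110, 12.4 and 22.9 CPM in the same order, against 0 to 28.2 CPM in awake mice. The APP/PS1-Ketamine mice thus held the higher values while for Jun mouse 28 lay within the awake range and mouse 27 above it, and for Fos both WT-Ketamine mice lay within it. This difference of 2 against 2 mice was not tested. Without mouse 25, 1 member of the list was called, and without mouse 26, 4 were. In mouse 25, 10.3% of the member nuclei fell in a sub-cluster of 31 nuclei led by Ccn2, Bnc2 and Fos, and without those 7 sub-clusters 5 of 20 immediate early genes were called. Jun also rose in marker-free nuclei (1.03, limma adjusted p = 0.027), with a difference from the members of 1.22 (SE 0.255, limma adjusted p = 0.0184).

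**Figure D4:**
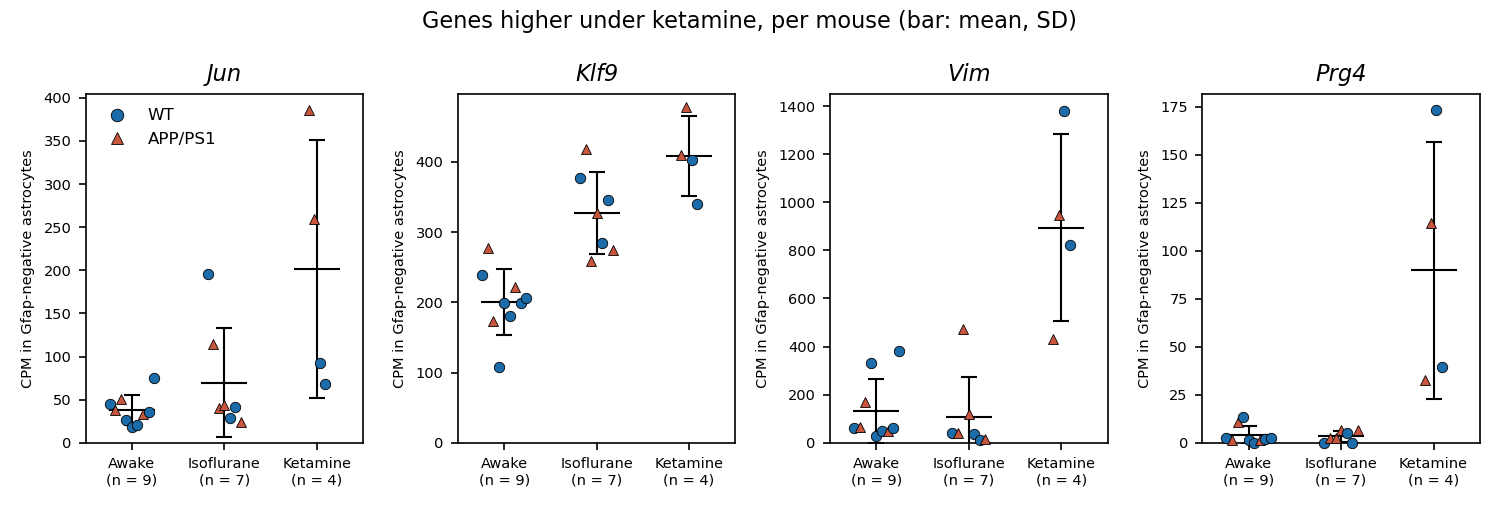
Expression of Jun, Klf9, Vim and Prg4 in Gfap-negative astrocytes, 1 point per mouse, in CPM on a linear axis for awake (n = 9), isoflurane (n = 7) and ketamine mice (n = 4). Circles are WT, triangles APP/PS1, and bars give the mean and SD. Jun is highest in the APP/PS1-Ketamine mice at 259 and 386 CPM, and the 4 ketamine mice lie above all awake mice for Klf9, Vim and Prg4. The genes were picked for their change in these mice, so this is a description.

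The smallest p under ketamine belonged to Eftud2, a GTPase of the spliceosome. It was at 128, 247, 210 and 137 CPM in mice 25, 26, 27 and 28, against 40.1 to 66.1 CPM (median 51.1) in awake mice, a log2 change of 1.82 (SE 0.208, edgeR adjusted p = 6.61e-05). Its change in marker-free nuclei was 0.08, and the difference was 1.64 (SE 0.175, limma adjusted p = 0.000122). Camk2n1, an inhibitor of the kinase CaMKII, rose by 1.35 (SE 0.18), from 55.6 to 98.9 CPM to 189, 232, 192 and 180 CPM. Klf9 rose by 1.10 (SE 0.148) and Hif3a by 1.48 (SE 0.227). Of the 25 genes of the glucocorticoid list 3 were called higher, against 2.39% of all genes, and 1 lower, against 1.36%. The lower gene was Nr3c2, the mineralocorticoid receptor (-0.67, SE 0.162), which the list holds as a receptor gene. With each mouse left out 2 to 6 were called higher (6 without mouse 11, 5 without mouse 26 or 29), and none lower without mouse 26 or 27. Of 21 clock genes 3 were called higher, against the same 2.39%. Bhlhe40 rose by 1.15 (SE 0.223), Npas2 by 0.80 (SE 0.172) and Bhlhe41 by 0.76 (SE 0.202), the last called in 18 of 31 fits. Without mouse 11 the clock list had 5 higher calls and without mouse 27 it had 1. The difference between members and marker-free nuclei was called for 188 genes (1.74%), 90 higher in members (0.831%) and 98 lower (0.905%), and without mouse 27 for 58 and without mouse 13 for 114.

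Markers of other cells were also counted under ketamine. None of 14 neuron genes, 9 oligodendrocyte genes, 5 oligodendrocyte precursor genes, 6 microglia genes, 4 vascular genes and 6 ependymal and choroid genes was called by edgeR. Their medians were -0.317, -0.438, -1.05, -0.137, 0.339 and -1.15. Of all genes 3.75% were called, a share at which lists this short often hold no call. Below 0 were 11 of the 14 neuron genes, 8 of the 9 oligodendrocyte genes and each of the 5 precursor genes. As said above, the precursor and vascular lists hold genes that were higher in the members than in marker-free nuclei. Their part in the ketamine calls was not tested. Vim, an intermediate filament protein, was at 433, 945, 1380 and 821 CPM in mice 25, 26, 27 and 28, against 26.2 to 380 CPM (median 62.4) in awake mice, a log2 change of 2.59 (SE 0.654, edgeR adjusted p = 0.0284). Prg4, a secreted proteoglycan and itself 1 of the 10 fibroblast genes summed here, was at 32.5, 115, 173 and 39.2 CPM against 0 to 13.5 CPM. In marker-free nuclei Vim rose by 4.54 and Prg4 by 3.77 (limma adjusted p = 0.0167 and 0.000279). A list of 10 fibroblast genes, written after the data were seen, summed to 516 to 963 CPM in the members of ketamine mice, to 26.6 to 415 CPM in awake and to 13.6 to 567 CPM in isoflurane mice. The sub-cluster that held 79.7% of the ketamine members had genes of this list among its leading genes. Their part in the rise of Vim, Cd44 (2.67, SE 0.432) and Neat1 (1.51, SE 0.245) was not tested.

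Lower genes under ketamine included Tra2a, a splicing factor, at 167, 165, 136 and 183 CPM in mice 25, 26, 27 and 28 against 274 to 412 CPM (median 340) in awake mice, which fell by 1.14 (SE 0.169, edgeR adjusted p = 0.00057). In marker-free nuclei it fell by 0.88. Gabra2, a subunit of the GABA-A receptor, fell by 0.94 (SE 0.156) and Cpe, a carboxypeptidase of secretory granules, by 0.73 (SE 0.13). Cpe was at 1223, 1237, 1275 and 1243 CPM, below the awake range of 1619 to 2539 CPM. Grm3 fell by 0.87 (SE 0.205) and Adcy2 by 0.78 (SE 0.16). Lhx2, a transcription factor of telencephalic astrocytes, fell by 1.30 (SE 0.276). Each of 5 tested telencephalic astrocyte genes was below 0 (median -0.351) and each of 5 non-telencephalic ones above 0 (median 0.385), with Lhx2 alone called. Between isoflurane and awake mice, 4 of the 5 telencephalic genes were below 0 (median -0.118). The 5 non-telencephalic genes were above 0 there (median 0.163), with Sparc alone called. All 6 telencephalic genes summed to 172 to 292 CPM in ketamine and 298 to 469 CPM in awake mice. All 7 non-telencephalic genes summed to 417 to 571 CPM and 322 to 446 CPM. The part of tissue region in this was not tested. Rbm3, a cold-induced RNA-binding protein, fell by 1.62 (SE 0.368) and Hspa5, the chaperone of the endoplasmic reticulum, rose by 0.79 (SE 0.224), with a call in 12 of 32 fits.

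The genotype labels were checked with Prnp, the prion protein gene (chr2:131909928-131938429 in GRCm38) whose promoter drives the transgenes. In the members it was at 131.5 to 464 CPM (median 291) in 9 mice labelled APP/PS1 and at 121 to 300 CPM (median 182) in 11 mice labelled WT. The mean log2 difference was 0.47 (two-sided exact permutation test, p = 0.0517), and 5 of the 9 mice labelled APP/PS1 lay within the range of those labelled WT. App, the amyloid precursor gene, was at 268 ± 64.7 CPM (SD, n = 9) against 199 ± 41.0 CPM (SD, n = 11) and differed by 0.43 (SE 0.136). These genes did not separate the labels in the members. Whether RNA of the transgenes was counted under Prnp or App is not given in the sources used here, so the check cannot decide whether the labels are right. Directions between genotypes are therefore given between mice as labelled.

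Between mice labelled APP/PS1 and mice labelled WT, with state as a covariate, edgeR called 0 of 10833 genes (0%), and 713 (6.58%) had an unadjusted p under 0.05. DESeq2 called 0 as well. With nuclei marked as doublets removed, 180 genes were called, all higher in APP/PS1, and all 180 had a higher CPM in marker-free nuclei than in the members, against 42.1% of all genes tested. With no gene filter 233 were called, 216 higher and 17 lower, and 83.7% of them had a higher CPM in marker-free nuclei. Of 14 neuron genes, 14 were above 0 (median log2 0.491) and none was called by edgeR. The 15 neuron genes summed to 4061 to 8033 CPM (median 5157) in the members of mice labelled APP/PS1 and to 2110 to 6497 CPM (median 4252) in those labelled WT. Their part in the 180 and the 233 calls was not tested. Of 33 cholesterol genes, 31 were below 0 (median -0.219) and none was called. C4b, a complement gene of reactive astrocytes, was at -0.32 (edgeR adjusted p = 0.83).

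Whether the isoflurane response differed by genotype was asked with an interaction term. It was called for 0 of 10833 genes (0%) by edgeR, with 339 (3.13%) at an unadjusted p under 0.05, and for 0 by DESeq2. With no gene filter some genes were called, and their count is given at the end. The 25 risen cholesterol genes were chosen by their rise in these same mice, so their values by genotype are a description. They were above 0 in both genotypes, with medians of 1.38 in WT and 1.12 in mice labelled APP/PS1. The lowest in APP/PS1 were Srebf2 (0.26, SE 0.165), Acat2 (0.32, SE 0.367) and Mvk (0.35, SE 0.339), at 0.575, 1.51 and 1.33 in WT. Stard4 rose by 2.98 in WT and 2.31 in APP/PS1, and Msmo1 by 1.32 and 1.10. Grm3 was at -1.47 and -1.40. The interaction of the 33 list genes was below 0 in 27, and none passed the test.

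Gfap-negative astrocytes were last set beside the Gfap-positive astrocytes of the same 20 mice, as a description, since Gfap divided them. With the mouse as a block, edgeR called 393 genes higher in Gfap-positive astrocytes (9.28%) and 297 lower (7.01%), 16.3% of 4234 genes. The levels in this comparison are medians over mice, scaled over these 4234 genes, and cannot be set beside the levels above. Myoc, which encodes myocilin (ENSMUSG00000026697), was at a median of 37.5 CPM in Gfap-negative and 1040 CPM in Gfap-positive astrocytes and higher in the latter in 20 of 20 mice. Id3 and Id1, inhibitors of differentiation downstream of BMP, were higher by 2.22 (SE 0.141) and 2.84 (SE 0.197) on the log2 scale, and Slc38a1, a glutamine transporter, by 2.16 (SE 0.145). Aqp4, a gene of the rule, was at medians of 419 and 1557 CPM. On the other side, Gfap-negative astrocytes held more Gpc5 (10087 against 6199 CPM), Lsamp, an adhesion molecule (21758 against 13158 CPM), Gria2, an AMPA receptor subunit (1714 against 1024 CPM), and Trpm3, a cation channel (2792 against 1329 CPM). Gpc5, Lsamp and Gria2 were higher there in 20 of 20 mice, of which mouse 12 had 3 Gfap-positive nuclei and mouse 25 had 142. Slc7a10, a transporter of serine and alanine, was at 192 against 78.0 CPM. Most of the neuron genes counted below were also higher in Gfap-negative nuclei. Their part in the levels of Lsamp, Gria2 and Trpm3 was not tested.

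Lists were counted in the same comparison, in which 9.28% of all genes were higher and 7.01% lower in Gfap-positive astrocytes. Of 10 measured Gfap-type genes 9 were higher in Gfap-positive astrocytes, and of 13 genes of the Notch and BMP pathways 8 were, among them Hes5 and Notch1. Of 29 core astrocyte genes, 12 were higher and 4 lower (Gpc5, Slc7a10, Trpm3 and Grm3), and of 20 cholesterol genes 7 were higher, with Hmgcs1 at 0.92 (SE 0.133). Of 12 neuron genes 9 were higher in Gfap-negative nuclei. Gfap-positive nuclei were deeper by median, 1798 against 1234 UMIs, and within nuclei of 2000 to 6000 UMIs 192 genes were higher and 247 lower. With no gene filter the split was 296 higher and 1625 lower, and without mice 1 to 4 it was 272 and 138.

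**Figure D5:**
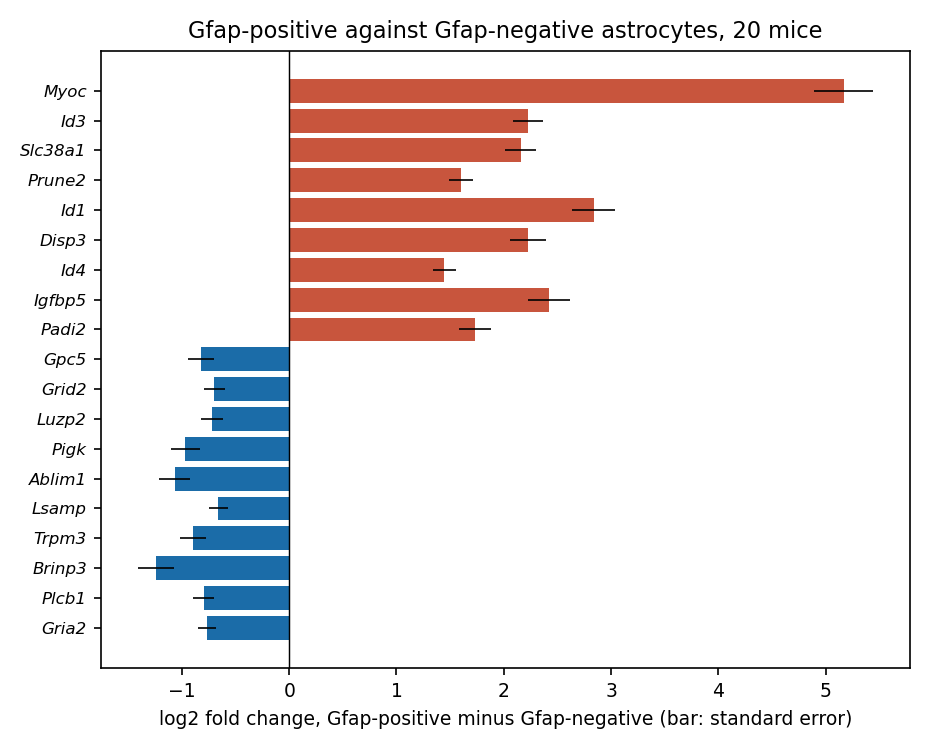
Log2 fold changes between Gfap-positive and Gfap-negative astrocytes of the same 20 mice for the genes with the smallest p in each direction. Bars to the right are higher in Gfap-positive nuclei, and lines give the standard error. Myoc has the longest bar at 5.17, and the 10 genes higher in Gfap-negative nuclei have bars to the left of 0, with Brinp3 at -1.24 and Lsamp at -0.66.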

How the data were processed

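Nuclei from frozen hippocampus of 20 mice were sequenced with droplet single nuclei RNA-sequencing, 1 library per mouse. The deposited values are raw UMI counts per gene and nucleus, which the authors made with Cell Ranger 5.0.0 (version from the submitters' processing notes) against mm10, introns included. The study's methods name CellBender, a tool that removes free RNA, but the file headers name Cell Ranger only, so whether these counts were corrected is not given in the sources used here. The kit is v3 in the methods and v3.1 in the labels.

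Groups were taken from the labels, and mice, not nuclei, were the replicates. The members and gene lists were chosen with earlier results of these data known, and the lists of fibroblast genes and other-cell genes were written after the data were seen. UMI counts of the members were summed per mouse. Genes were kept with filterByExpr of edgeR 4.0.16, scaled by TMM to CPM and tested with the quasi-likelihood test (R 4.3.3), with genotype, state and a term for mice 1 to 4, and Benjamini-Hochberg adjustment at 0.05. The interaction was fitted over the 6 groups. Changes in members and marker-free nuclei were compared with limma 3.58.1 on log-CPM differences per mouse (prior count 2). Shares and Prnp were tested with two-sided exact permutation tests. DESeq2 1.42.0 was an alternative, as were other filters, scalings, rules for members and leaving out each mouse. Doublets were scored by simulated pairs of nuclei and 9646 nuclei marked, 614 of them members (8.26%), which stayed in except in 1 alternative. Sub-clusters were made with scanpy 1.11.5 (2000 genes, 20 components, 20 neighbours, Leiden resolution 0.6).

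Library totals of 9243992 to 25394891 UMIs and member totals of 154230 to 1137625 UMIs set the precision. Tested on simulated data with 200 changed genes, the isoflurane fit recovered 92% of 2-fold and 100% of 3-fold changes with 10421 genes tested. The ketamine fit recovered 65% and 94% with 10379 genes tested. The changed genes were drawn only above a minimum expected count, so recovery for genes with fewer counts is not given. No effect of mice 1 to 4 was simulated. False calls were 3.52% of the isoflurane, 1.85% of the ketamine and 5.83% of the genotype calls. Genes named are Prnp and App, the 14 genes of the rule as values only, the 10 smallest adjusted p in each direction per comparison, called genes of the lists and up to 4 examples per list. Some genes are not reported here.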

Additional observations from a re-analysis of the deposited data

Results flagged for a closer look

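In 28 tests, each of 1 quantity within 1 group of mice, 3 values lay apart from the other mice of their group by Dixon's criterion. Chance meets it in about 1 in 20 tests, and tests of several quantities on the same mice are not independent. WT-Awake mouse 12 had 2.044% of its nuclei among the members, against 5.143% in the nearest of the other 5 mice. APP/PS1-Isoflurane mouse 4 had 7.315%, against 4.238% in the nearest, and a median of 1862 UMIs per member nucleus, against 1126 in the nearest.

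The change under isoflurane differed between members and marker-free nuclei of the same mice for 252 genes, and the change under ketamine for 188 genes, by limma at an adjusted p under 0.05. Under ketamine the difference for Per2, a clock gene, was 1.50 (SE 0.233, limma adjusted p = 0.00347), with a change of -1.67 in marker-free nuclei and of -0.13 in the members.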

How the results depend on the processing

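The labels give no replicate number shared between groups, and do not identify the batches in which the study's methods say tissue was processed. With runs of neighbouring mouse numbers entered as a block, isoflurane gave 617 genes (391 higher, 226 lower, 499 of them called in the reported fit), and genotype and interaction 0, while ketamine could not be fitted with mouse 29 outside the run of mice 25 to 28. Genes in at least 10% of member nuclei gave 411 (226 higher, 185 lower), 257 and 211 calls for isoflurane, ketamine and ketamine against isoflurane. A marker sum of 6 or more gave 421, 140 and 69, and equal nuclei per mouse (149) gave 283, 230 and 142. Without mice 1 to 4 the counts were 385 for isoflurane, 242 for ketamine, 410 for the Gfap comparison, and 118 and 101 for the differences from marker-free nuclei under isoflurane and ketamine. With no gene filter they were 812 for ketamine, 681 for ketamine against isoflurane, 233 for genotype, 20 for the interaction and 1921 for the Gfap comparison. Removing doublets gave 180 for genotype, nuclei of 2000 to 6000 UMIs gave 439 for the Gfap comparison, and a prior count of 0.5 gave 119 for the ketamine difference. The cause was not tested. In the Gfap comparison, Tnr (-0.1346), Phkg1 (0.01393) and Pnpla7 (0.02184) changed sign in nuclei of 2000 to 6000 UMIs, and Acsl3 (-0.001962) and Slc1a2 (-0.09625) with no gene filter. Leaving out each mouse gave 399 to 768 genes for isoflurane, 126 to 543 for ketamine, 111 to 447 for ketamine against isoflurane, 0 for genotype and interaction, 591 to 831 for the Gfap comparison, and 140 to 274 and 58 to 221 for the differences. The share differences ran from -1.148 to -0.4446, from -1.649 to -1.001 and from 0.2091 to 0.7069 percentage points for isoflurane, ketamine and genotype, and that of Prnp from 0.3748 to 0.6021, past 0.05 without mouse 3, 11, 13, 14 or 20.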
